A study of Mus musculus with 10 samples.

Results

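Serotonergic specification transcription factors are the regulators that turn ventral hindbrain progenitors into serotonin-producing neurons. The 8 listed were Fev, Lmx1b, Gata2, Gata3, Insm1, Foxa2, En1 and En2, and every probe set whose symbol field named one of them was taken. This gave 10 of 45037 probe sets, for 7 of the 8 genes. No probe set was paired with Fev, by symbol or by Entrez number, in the annotation used here, so Fev was not analysed here. That annotation leaves 9160 probe sets unnamed, 3 of which were called lower in the Nkx2.2-/- mice and 0 higher (limma, adjusted p under 0.05). One of the unnamed probe sets may belong to Fev, so whether Fev differs is not known here, and every count below covers the other 7 genes alone. Lmx1b, Gata2 and Insm1 had 2 probe sets each and the other 4 genes had 1, none of them shared with another gene symbol. Expression was compared on 10 arrays, for 5 wild-type mice and 5 Nkx2.2-/- littermates, called mutants below. Values are always listed in the order 14, 15, 16, 18, 21 of the wild-type replicate numbers and 11, 12, 22, 29, 43 of the mutant ones. All were C57BL/6 mice aged 1.5 to 2 days, and RNA came from pons, medulla and rostral spinal cord cut out of 20 µm sections. The Nkx2.2-/- genotype is written without a driver, so no cell type of the tissue is exempt from it, and wild-type littermates carried no allele named in the labels. The question was which transcripts differ when this homeodomain factor is missing.

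Nkx2-2 acts in the ventral progenitors from which hindbrain serotonergic neurons arise. Foxa2, a forkhead factor of the floor plate, acts with it in the progenitors, and the GATA zinc finger factors Gata2 and Gata3, the LIM homeodomain factor Lmx1b and the ETS factor Fev, also known as Pet-1, act in the young neurons. Fev and Lmx1b then drive the genes of serotonin synthesis and transport, and the engrailed homeodomain factors En1 and En2 act later in serotonergic neurons of the rostral hindbrain. None of these factors apart from Fev is largely limited to serotonergic neurons in this tissue: Gata2 and Gata3 are also known from ventral interneurons, Lmx1b from dorsal spinal neurons, En1 from ventral interneurons, En2 from the cerebellum, and Insm1, a zinc finger factor, from newborn neurons in general.

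RefSeq promoter windows of GRCm38.p6 were matched by symbol for 6 of the 8 genes, and 3 are shown. They are those of Fev, for which no array value was analysed, of Lmx1b, and of En1, which varied with En2 and Insm1 across the mice. Each sequence is the 250 bases before the annotated start, 5′ to 3′ on the gene's strand. Capitals mark matches, on either strand, to 5 short motifs. These were AAGTGC, which holds the core letters of NK2-class homeodomain sites, then AGATAA for GATA-family zinc finger factors, then TAATTA for homeodomain factors, then CGGAAG for ETS factors, and lastly TATAAA, the TATA box.
Fev (chr1:74885409-74885658, minus strand): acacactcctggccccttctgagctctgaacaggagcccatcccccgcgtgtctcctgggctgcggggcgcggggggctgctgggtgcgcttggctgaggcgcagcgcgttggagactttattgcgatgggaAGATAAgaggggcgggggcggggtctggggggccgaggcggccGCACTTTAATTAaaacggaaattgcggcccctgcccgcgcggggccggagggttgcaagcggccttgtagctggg
Lmx1b (chr2:33641099-33641348, minus strand): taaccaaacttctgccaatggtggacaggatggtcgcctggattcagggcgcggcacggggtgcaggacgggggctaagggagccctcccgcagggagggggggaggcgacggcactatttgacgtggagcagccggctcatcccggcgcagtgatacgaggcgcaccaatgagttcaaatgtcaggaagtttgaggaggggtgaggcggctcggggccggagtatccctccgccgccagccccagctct
En1 (chr1:120602237-120602486, plus strand): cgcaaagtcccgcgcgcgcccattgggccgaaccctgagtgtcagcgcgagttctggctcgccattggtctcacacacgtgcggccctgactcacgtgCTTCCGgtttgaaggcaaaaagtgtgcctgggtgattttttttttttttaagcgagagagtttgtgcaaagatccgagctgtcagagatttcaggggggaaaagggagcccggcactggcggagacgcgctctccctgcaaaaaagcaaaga

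The Fev window held 1 match each to the GATA letters, the NK2-class letters and the homeodomain letters, beginning 118, 75 and 69 bases before the start, with the latter pair side by side and not overlapping. The Lmx1b window held none of the 5 motifs, and the En1 window held the ETS letters alone, 152 bases before the start. Among all 32851 promoter windows of that length, AAGTGC was found in 10.1%, AGATAA in 9.99%, TAATTA in 4.84%, CGGAAG in 13.6% and TATAAA in 12.4%. These are matches of letters and say nothing of binding.

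None of the 7 measured factors passed the test. Of their 10 probe sets, 0 were called lower, where 0.0511% of all probe sets were, and 0 were called higher, where 0.0% were (limma, Benjamini-Hochberg adjusted p under 0.05 over all probe sets). By the 1 probe set kept per gene the background was 0.0605% lower. At an unadjusted limma p under 0.05 the count of members was also 0, against 3.43% of all probe sets (2.35% lower, 1.08% higher). In none of the 10 did the 5 Nkx2.2-/- values lie wholly outside the wild-type values, as they did in 0.757% of all probe sets. Values are log2 RMA expression, changes are Nkx2.2-/- minus wild type on that scale, and intervals are limma's 95% intervals. Over the 10 probe sets the median change was -0.13, with 6 lower and 4 higher in sign, beside a median of 0.0010 over all probe sets. Where a gene had several probe sets, the one of highest mean stands for it below. In this bulk tissue fewer cells of a type and less RNA per cell cannot be told apart.

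**Figure D1:**
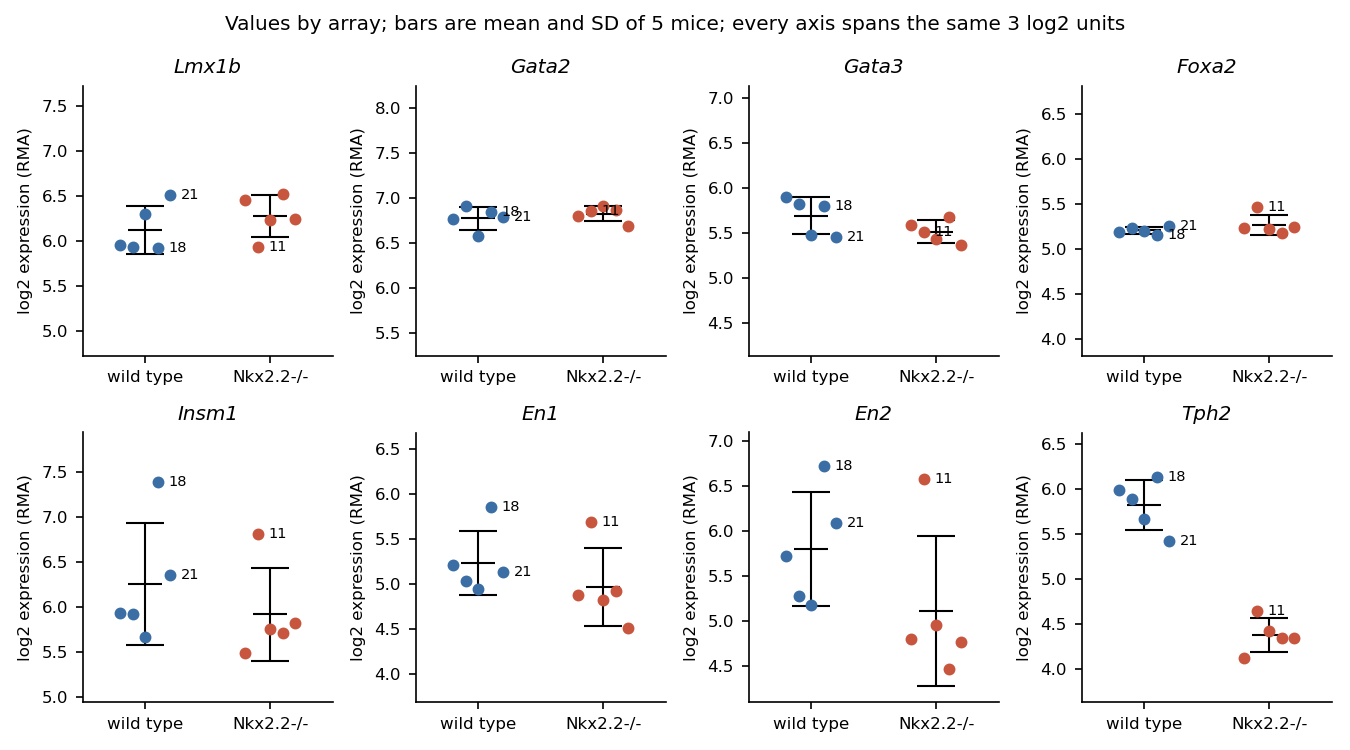
Log2 RMA expression of the 7 measured factors and of Tph2 in each array, wild type in blue and Nkx2.2-/- in red, with mean and SD of 5 mice; replicates 18, 21 and 11 are numbered and every axis spans 3 log2 units. The 2 genotypes overlap in all 7 factors and separate in Tph2, and replicates 18 and 11 stand highest of their groups in Insm1, En1 and En2.

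Foxa2 was the steadiest of the factors. It measured 5.19, 5.24, 5.20, 5.15 and 5.25 in the wild types against 5.47, 5.22, 5.23, 5.18 and 5.24 in the mutants. Apart from replicate 11, every Nkx2.2-/- value lay within the wild-type range. Mean levels of 5.21 ± 0.0398 and 5.27 ± 0.114 (SD, n = 5 each) gave a change of 0.06 with an interval of -0.06 to 0.18 (limma adjusted p = 0.9997). The change was -0.0012 once wild type 18 and mutant 11 were left out together. The wild-type mean exceeded 53.5% of probe sets and lay near the array medians, which ran from 5.07 to 5.12. RMA gives no detection call, so whether this signal stands above background was not tested.

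Gata2, a zinc finger factor of the young serotonergic neurons, had a wild-type mean above 82.3% of probe sets. Its values were 6.76, 6.91, 6.57, 6.84 and 6.78 without the mutation and 6.86, 6.91, 6.79, 6.87 and 6.69 with it. The genotypes overlapped almost wholly. The change was 0.05 (SE 0.0659), with an interval of -0.10 to 0.20 (limma adjusted p = 0.9997). On its second probe set the change was -0.08 (interval -0.22 to 0.06), so the sign differed between the probe sets and neither interval left out 0. Across mice the 2 had a Pearson r of 0.56 on deviations from the genotype means (Spearman rho 0.71).

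Gata3, which in serotonergic development is best known from the caudal hindbrain, measured 5.90, 5.82, 5.48, 5.80 and 5.45 in the wild types. The mutants had 5.51, 5.43, 5.59, 5.67 and 5.36. All 5 Nkx2.2-/- values lay below the wild-type mean, but 2 wild-type mice, replicates 16 and 21, lay among them. From 5.69 ± 0.208 to 5.51 ± 0.125 (SD, n = 5 each), the change was -0.18 with an interval of -0.39 to 0.04 (limma adjusted p = 0.9997, unadjusted p = 0.0997). By the exact two-sided permutation test p was 0.143. When the pair of arrays with a dim Gapdh 5 prime control (wild type 14, mutant 43) was left out, the change was -0.08. It was -0.22 with array weights and -0.23 without wild type 16 or without wild type 21. In these 3 of 22 alternatives the unadjusted limma p was under 0.05, and none passed over all probe sets.

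Lmx1b, needed for the serotonergic fate of the young neurons, was higher in sign in the Nkx2.2-/- mice. Its levels were 5.95, 5.93, 6.29, 5.92 and 6.51 among wild types, 5.93, 6.23, 6.45, 6.52 and 6.24 among mutants. The highest wild-type mouse and the highest Nkx2.2-/- mouse were nearly level, as were the lowest of each. The change was 0.15 (SE 0.139) with an interval of -0.15 to 0.46 (limma adjusted p = 0.9997). At its lower bound Lmx1b would be 1.11-fold lower in the Nkx2.2-/- mice. The other Lmx1b probe set was dim, with a wild-type mean above 37.0% of probe sets, and its 10 values ran from 4.68 to 4.85. Across mice the 2 did not move together (Pearson r = 0.06, Spearman rho = 0.13 on deviations from the genotype means). What is said of Lmx1b across mice below rests on the brighter one alone.

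Insm1, a zinc finger factor that newborn neurons pass through, measured 5.94, 5.93, 5.67, 7.39 and 6.36 in wild types against 6.82, 5.76, 5.50, 5.72 and 5.83 in mutants. Wild-type replicate 18 and Nkx2.2-/- replicate 11 stood far above the rest of their groups. Mean levels of 6.26 ± 0.680 and 5.93 ± 0.516 (SD, n = 5 each) differed by -0.33 with a wide interval, from -1.06 to 0.39 (limma adjusted p = 0.9997). Its dimmer probe set had a change of -0.55 (interval -1.18 to 0.07), with all 5 Nkx2.2-/- values below the wild-type mean of 5.17. Across mice the 2 probe sets moved together (Pearson r = 0.95 on deviations from the genotype means of 10 arrays, a description of probe sets of 1 gene). The change on the brighter one was -0.05 without wild-type replicate 18 and -0.56 without Nkx2.2-/- replicate 11. It was -0.27 (interval -0.59 to 0.04) without both, in an alternative added after seeing the data.

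The engrailed genes showed the same 2 arrays on top. En1 measured 5.21, 5.03, 4.94, 5.85 and 5.13 in wild types against 5.69, 4.82, 4.88, 4.92 and 4.51 in mutants. Its change was -0.27 with an interval of -0.75 to 0.22 (limma adjusted p = 0.9997). The other 4 mutants lay below every wild-type mouse, and without replicate 11 the change was -0.45. It was -0.11 without wild type 18 and -0.16 without mutant 43. Without wild type 18 and mutant 11 together, in the alternative added after seeing the data, it was -0.29 (interval -0.52 to -0.07). The unadjusted limma p was 0.0146 there and did not pass over all probe sets.

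En2 had the largest difference of the 7, and also the largest spread. Wild types had 5.72, 5.28, 5.17, 6.73 and 6.09, mutants 6.57, 4.95, 4.80, 4.46 and 4.77. As with En1, 4 Nkx2.2-/- mice lay below every wild-type mouse and replicate 11 lay above all but 1 of them. Levels averaged 5.80 ± 0.636 and 5.11 ± 0.837 (SD, n = 5 each), 1.61-fold apart, with a change of -0.69 with an interval of -1.58 to 0.21 (limma adjusted p = 0.9997, exact two-sided permutation p = 0.190). Leaving out replicate 11 moved it to -1.05, with an unadjusted limma p of 0.00440 that did not pass over all probe sets, and leaving out wild-type replicate 18 moved it to -0.46. Choosing to leave out the mouse highest in its group favours such a separation. With wild type 18 and mutant 11 both left out, in the alternative added after seeing the data, the change was -0.82 (interval -1.27 to -0.37). Its unadjusted limma p of 0.00276 did not pass over all probe sets either.

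The factors thus differed in how much they varied between mice of 1 genotype. The within-genotype SD of En2 exceeded that of 99.9% of probe sets, those of the Insm1 probe sets 99.8% and 99.6%, and that of En1 98.8%. For the brighter Lmx1b probe set the share was 92.5% and for Gata3 81.5%. Gata2 (61.3% and 58.5%), Foxa2 (44.9%) and the dim Lmx1b probe set (17.2%) were near or below the middle. The intervals of the engrailed genes and Insm1 were accordingly the widest.

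**Figure D2:**
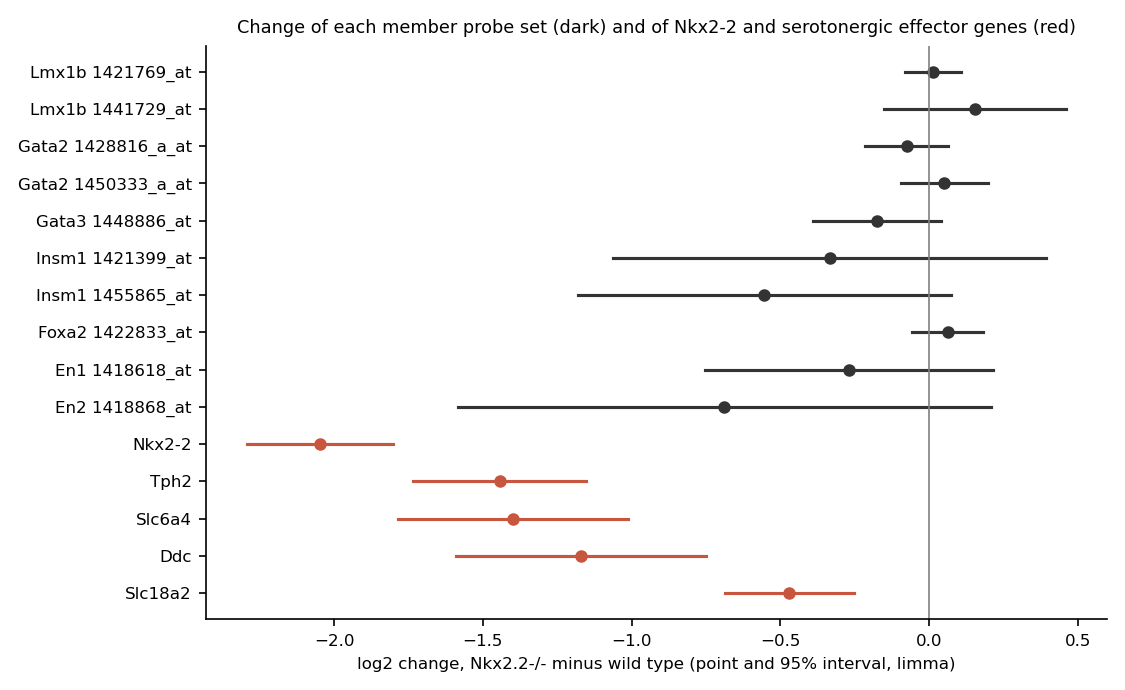
Log2 change with its 95% interval (limma, 5 mice a genotype) for each of the 10 probe sets of the factors in dark grey and for Nkx2-2, Tph2, Slc6a4, Ddc and Slc18a2 in red. Every dark interval includes 0, from -1.58 to 0.21 for En2 to -0.08 to 0.11 for the dim Lmx1b probe set, and no red one does.

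Of the genes that make, store, carry and sense serotonin, Tph2 and Slc6a4 fell in the same arrays. Of 10 measured effector genes, 2 fell and 0 rose over all probe sets (limma), 5 had Nkx2.2-/- values wholly below the wild-type values (0.442% of all probe sets did), and the median change was -0.20, beside -0.0042 over all 18193 genes. Tph2, the neuronal tryptophan hydroxylase, changed by -1.44 (interval -1.73 to -1.15, limma adjusted p = 0.00144) and Slc6a4, the serotonin transporter, by -1.40 (interval -1.78 to -1.01, limma adjusted p = 0.0165). Ddc, the decarboxylase, and Slc18a2, the vesicular transporter, had changes of -1.17 and -0.47 and did not pass (limma adjusted p = 0.124 and 0.534). The other effectors lay between -0.27 and 0.11. Of the serotonin receptor genes in the list, Htr1a (0.11) and Htr1b (0.03) were higher in sign and Htr1d (-0.03) lower. That genes of this list are lower was known when the list was made, so it is no independent evidence.

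Beside Tph2, which was chosen because it is lower, the factors' changes are given as a description with no test. The change of Lmx1b exceeded that of Tph2 by 1.60, of Foxa2 by 1.51, of Gata2 by 1.49, of Gata3 by 1.27, of En1 by 1.18, of Insm1 by 1.11 and of En2 by 0.76. By the probe set of highest mean, the lower bounds of the factors' own intervals were falls of 1.31-fold for Gata3 and 1.11-fold for Lmx1b. For Gata2 and Foxa2 they were 1.07-fold and 1.04-fold, the latter from a probe set near the array medians and not known to be above background. They were 1.68-fold for En1, 2.09-fold for Insm1 and 3.0-fold for En2, against a measured fall of 2.72-fold in Tph2. On the other probe sets they were 1.16-fold for Gata2, 2.27-fold for Insm1 and 1.06-fold for Lmx1b. These bounds are for the whole tissue, and the factors are also known from cells other than serotonergic neurons.

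Among the other regulators of serotonergic development, 1 of 12 measured fell and 0 rose (limma over all probe sets), and the median change was 0.02. The 1 was Nkx2-2 itself, at 6.55 ± 0.186 in wild type and 4.51 ± 0.207 in Nkx2.2-/- mice (SD, n = 5 each), a change of -2.05 (limma adjusted p = 7.2e-05). Shh, the ventralising signal of the floor plate, had a change of 0.11 and Mecom, a zinc finger factor, one of 0.10. Paralogs of the factors did not pass either: of 12 measured 0 fell and 0 rose, with a median of 0.01 and values from -0.16 for Ets1 to 0.12 for Foxa3.

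Insm1, En1 and En2 varied alike across mice, and with them genes of the cerebellum, which adjoins the dissected pons and is not among the labelled tissues. On deviations from the genotype means of 10 arrays, Pearson r was 0.91 for Insm1 and En2, 0.89 for En1 and En2 and 0.88 for Insm1 and En1 (Spearman rho 0.72, 0.64 and 0.47). The mean level of 13 measured cerebellar genes set 3 arrays apart, wild-type replicates 18 and 21 and Nkx2.2-/- replicate 11, with 6.83 to 7.18 against 6.19 to 6.32 in the other 7. In those 3 arrays Insm1 lay at 6.36 to 7.39 against 5.50 to 5.94, and En2 at 6.09 to 6.73 against 4.46 to 5.72, with no overlap, while En1 overlapped (5.13 to 5.85 against 4.51 to 5.21). Because the arrays fall into 2 sets, no correlation with the cerebellar mean over all 10 is given. The coefficients between the factors above span both sets and are a description only. Within the 7 arrays the relation was not found for En2 (r = -0.01, exact permutation p = 0.988; rho = -0.46, exact p = 0.302). For En1 it was r = -0.12 (exact permutation p = 0.748; rho = -0.21, exact p = 0.662). For Insm1 it was r = 0.79 (exact permutation p = 0.0375, adjusted over 14 relations 0.257; rho = 0.39, exact p = 0.396) and turned to r = -0.46 without the 2 arrays farthest from the median.

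By genotype the cerebellar genes had a median change of -0.08, 12 of 13 lower in sign and 0 called (limma), with mean levels of 6.25 to 7.18 in wild type and 6.19 to 6.96 in Nkx2.2-/- mice. Neurod1, Car8 and Pcp2, of granule and Purkinje neurons, had the largest values, -0.64, -0.39 and -0.36. Proliferation genes had the same arrays highest in each group, mean levels of 5.98 to 6.59 in wild type and 5.58 to 6.08 in Nkx2.2-/- mice, a median change of -0.39 and 13 of 13 lower in sign. Of these 0 were called, and 10 of 13 were lower at an unadjusted limma p under 0.05, against 2.35% of all probe sets. With the cerebellar mean as a covariate the change of En2 was -0.40, and its interval of -0.80 to -0.00015 just left out 0. That interval was narrower than the -1.58 to 0.21 of the plain comparison. The change of En1 was -0.13 (interval -0.42 to 0.17) and of Insm1 -0.09 (interval -0.29 to 0.12). None of the 3 genes passed over all probe sets. What part cerebellar or dividing cells have in these differences was otherwise not tested.

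**Figure D3:**
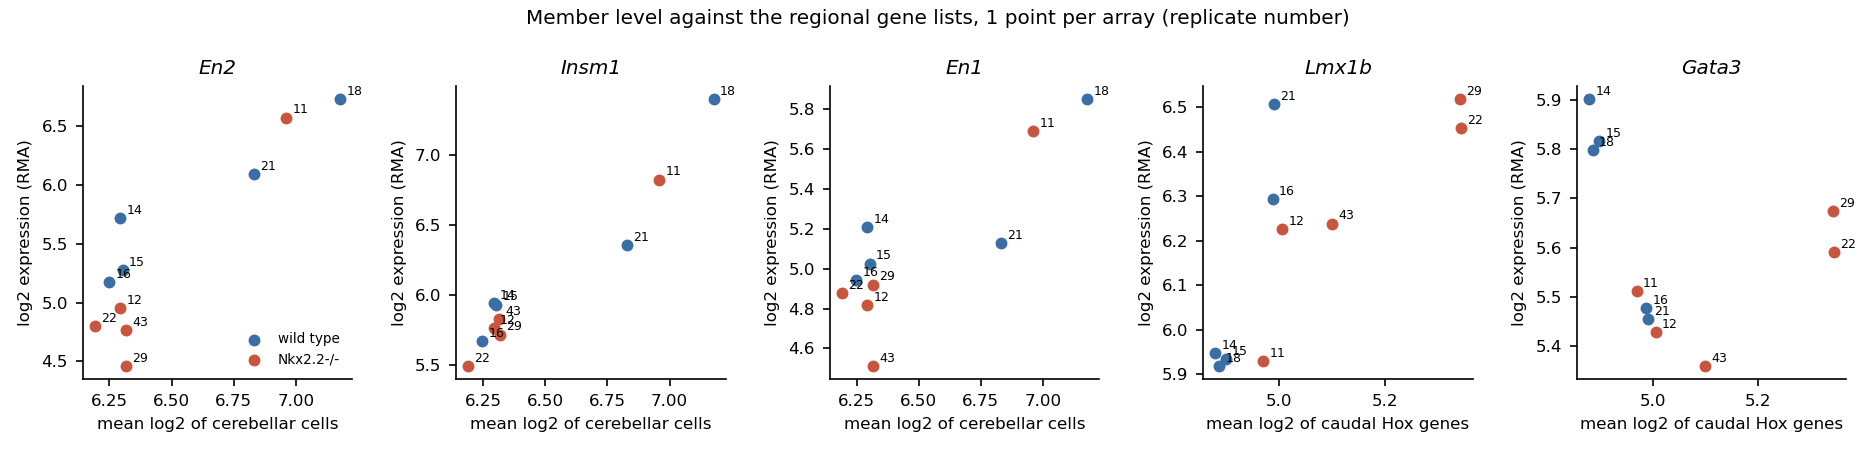
Log2 RMA expression of En2, Insm1 and En1 against the mean of 13 cerebellar genes, and of Lmx1b and Gata3 against the mean of 12 caudal Hox genes, 1 point per array with its replicate number, wild type in blue and Nkx2.2-/- in red. Replicates 18, 11 and 21 stand apart in the first 3 panels, and Nkx2.2-/- replicates 22 and 29 stand apart to the right in the last 2.

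Hox genes of the spinal cord were taken to mark how much caudal tissue a sample holds, which was not tested. Of 12 measured, 11 were higher in sign in the Nkx2.2-/- mice and 0 were called (limma), with a median change of 0.06. Hoxc8, Hoxb9 and Hoxd8 had the largest changes, 1.33, 0.39 and 0.32. The mean level of the 12 was 4.88 to 4.99 in wild type, below the array medians of 5.07 to 5.12. It was 4.97 to 5.34 in Nkx2.2-/- mice, with Nkx2.2-/- replicates 22 and 29 apart from the other 8 arrays. Lmx1b was high in those 2 arrays, at 6.45 and 6.52, though wild-type replicate 21 reached 6.51 at a Hox mean of 4.99. Within the other 8 arrays Lmx1b had r = 0.66 with the Hox mean (exact permutation p = 0.0734; rho = 0.64, exact p = 0.0962). With the Hox mean as a covariate the change of Lmx1b was -0.17, of Insm1 0.15 and of En2 0.012, each of opposite sign to the plain comparison and none called. The Hox means of the genotypes overlapped only from 4.97 to 4.99.

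Gata3 ran against the Hox mean within the 8 arrays (r = -0.93, exact permutation p = 7.44e-05, adjusted over 14 relations 0.00104; rho = -0.98, exact p = 3.97e-04, adjusted 0.00556; r = -0.99 without the 2 arrays farthest from the median). The 2 arrays of highest Hox level did not lie on that line, with Gata3 at 5.59 and 5.67, in the middle of its range. The 8 arrays hold 5 wild-type and 3 Nkx2.2-/- mice, so genotype moves with the Hox level among them. None of the other 13 relations passed after adjustment, by either coefficient. The sets of arrays were drawn from the data after seeing them.

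Other cells known to hold the factors were followed by lists of their genes, and in each list 0 genes passed in either direction (limma). Genes listed for V2b interneurons, where Gata2 and Gata3 act, are not all limited to those cells. They had a median change of -0.01 over 9 measured genes, with mean levels of 6.02 to 6.28 in wild type and 6.03 to 6.25 in Nkx2.2-/- mice. Genes listed for V1 interneurons, an En1 population, are not all limited to those cells either. Their median change was -0.01 over 6 genes (6.11 to 6.46 and 5.85 to 6.38). Both lists had wild type 18 and mutant 11 as the highest arrays of their groups, as the cerebellar genes did. For dorsal neurons that hold Lmx1b the median change was 0.05 over 8 genes, with levels of 6.59 to 6.91 and 6.54 to 7.04. Their lowest arrays were wild-type replicate 18 and Nkx2.2-/- replicate 11 and their highest wild-type replicate 21 and Nkx2.2-/- replicate 29, which were the lowest and highest arrays of Lmx1b in each genotype too.

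For floor plate genes, around Foxa2, the median was 0.01 over 9 genes (6.32 to 6.56 and 6.35 to 6.51). Midbrain dopaminergic genes, not all of them limited to the midbrain, had a median of -0.0043 over 10 genes (5.44 to 5.55 and 5.41 to 5.54). Their wild-type means ran from above 32.9% of probe sets for Slc6a3, the dopamine transporter, to above 86.0% for Ret, a growth factor receptor, with Th, the rate-limiting enzyme of dopamine synthesis, above 60.4%. Whether the samples held midbrain tissue was not tested, and these levels cannot tell. Genes of the midbrain-hindbrain boundary, where En1 and En2 begin, had a median of 0.04 over 9 genes (5.36 to 5.62 and 5.41 to 5.58), with Otx2 at -0.34 and Pax8 at 0.21. Differentiating neural progenitor genes, around Insm1, had a median of -0.04 over 9 genes (5.51 to 6.11 and 5.45 to 6.01). Endothelial genes, a further site of Gata2, had a median of -0.03 over 10 genes (5.84 to 6.11 and 5.78 to 5.98), and red cell genes one of -0.0054 over 6 (4.79 to 4.83 and 4.76 to 4.85). The part of these cells in the factors' values was not tested.

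The genes most like each factor across mice were sought among 9096 or 9097 other genes of above-median mean, by Pearson r on deviations from the genotype means of 10 arrays, as a description with no test. Incenp, a mitotic protein, was nearest to both En1 (r = 0.94) and En2 (r = 0.95), followed by Top2a (0.94) and Rrm2 (0.93) for En1 and by Pcp2 (0.95) and Tchp (0.93) for En2. Nearest to Insm1 were Gli2 (0.98), Cdc20 (0.97) and Cdk6 (0.97). Otof (0.94), Cartpt (0.93) and Surf2 (0.92) came nearest to Lmx1b. The first 3 for Gata2 were Rab43 (0.98), Myl12a (0.96) and Col4a2 (0.94). For Gata3 they were Gorasp1 (0.94), Itm2c (0.93) and Gnai2 (0.91), and for Foxa2 Rtbdn (0.92), Cd59a (0.87) and Ppp1r13l (0.83). Spearman rho on these deviations was lower in most pairs, such as 0.64 for En1 with Top2a and 0.66 for En2 with Pcp2. For Foxa2 it was 0.71 with Rtbdn and 0.62 with Ppp1r13l. Only Otof (0.96) and Cartpt (0.98), with Lmx1b, had a rho above r. How far r for Insm1, En1, En2 and Foxa2 rests on arrays standing far above their group was not tested.

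**Figure D4:**
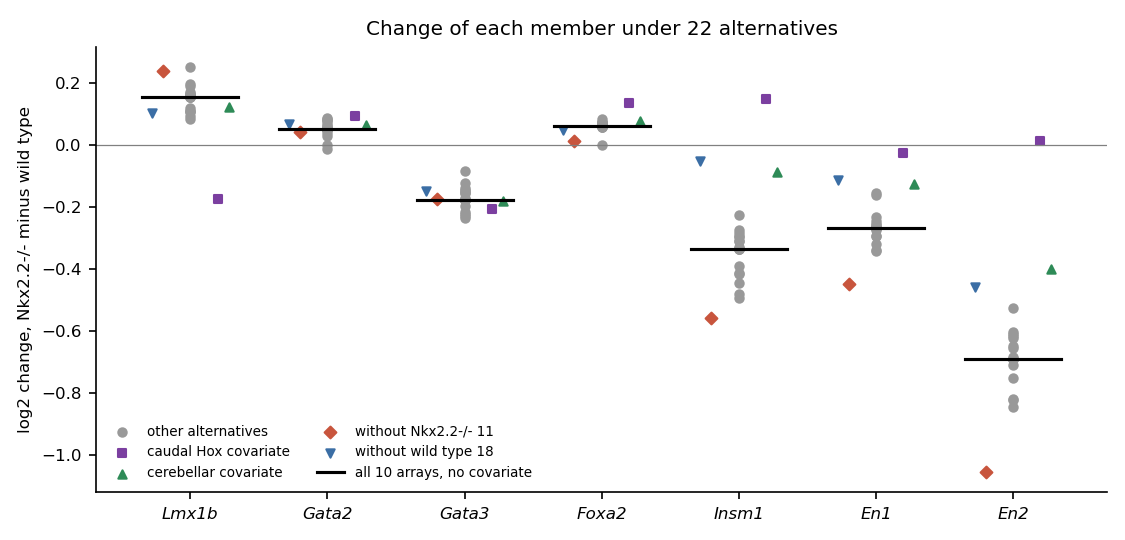
Log2 change of each factor with all 10 arrays (black line) and under 22 alternatives (points), with the 2 covariates and the runs without wild-type replicate 18 or Nkx2.2-/- replicate 11 marked. Gata3 and En1 are below 0 throughout, En2 and Insm1 cross 0 with the caudal Hox covariate alone, and the points of En2 and Insm1 spread most.

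Over 22 alternative settings of the arrays, normalization, filter, model or covariate, 0 member probe sets were called in every one (limma). The lowest adjusted p of any factor was 0.656, for Gata3 with array weights. The unadjusted limma p was under 0.05 in 3 of the 22 for Gata3, 3 for En2 and 2 for En1. It was so in 0 for Lmx1b, Gata2, Insm1 and Foxa2. En2 ranged from -1.05 to 0.012, Insm1 from -0.56 to 0.15, En1 from -0.45 to -0.03, Gata3 from -0.23 to -0.08, Lmx1b from -0.17 to 0.25, Foxa2 from -0.0012 to 0.14 and Gata2 from -0.013 to 0.09.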

How the data were processed

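The deposited values are log2 expression levels, 1 for each probe set on each array. The authors used RMA, as the submitters' processing notes name it (version not given in the sources used here), from TRIzol RNA made into biotinylated cRNA per the labels' protocols. RMA corrects background, quantile-normalizes and summarises probes, gives no detection call, and hides shifts common to most genes. The table has 45101 probe sets, and 64 of them, controls, were dropped. In the platform annotation, 34945 of the others had 1 symbol, 932 several and 9160 were unnamed here. Array medians ran from 5.07 to 5.12, and the number of arrays limits the precision. The 5 prime Gapdh control was dim on wild-type replicate 14 and Nkx2.2-/- replicate 43.

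All 45037 probe sets were fitted with lmFit and eBayes of limma 3.58.1 (R 4.3.3), with no covariate and Benjamini-Hochberg adjustment at 0.05, checked on simulated data. Groups came from sample titles. Members, lists, tests and the alternatives were chosen with earlier results of these data known. Named were every factor by its probe set of highest mean, Nkx2-2, Tph2, Slc6a4, Slc18a2 and Ddc, up to 3 genes of largest change per list, and the 3 genes most like each factor. Slc6a3, Ret, Th, Htr1a, Htr1b and Htr1d were named after their values were seen. Alternatives tried were repeated quantile normalization, a shared array median, a filter on dim probe sets, trend or robust priors, array weights, 1 value per gene, the caudal Hox or cerebellar mean as a covariate, and leaving out arrays. Python 3.11.15, pandas 2.3.3 and matplotlib 3.10.9 served for tables and figures.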

Additional observations from a re-analysis of the deposited data

Results flagged for a closer look

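Among 30 groups of 5 arrays examined, of the 10 factor probe sets and 5 reference genes, 5 held an array whose gap to its neighbour was over 0.71 of the group's range, and chance gives about 1 such group in 20. In 3 it was Nkx2.2-/- replicate 11, the highest of its group: Insm1 at 6.82 with the next at 5.83, Foxa2 at 5.47 with the next at 5.24, and En2 at 6.57 with the next at 4.95. Nkx2-2 in wild-type replicate 14 was highest at 6.88, with the next at 6.51. Slc18a2 in Nkx2.2-/- replicate 43 was lowest at 5.10, with the next at 5.53.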

How the results depend on the processing

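The count of called member probe sets was 0 in each direction under all 22 alternatives. Over all probe sets 23 were called lower and 0 higher (limma; 1059 and 486 at an unadjusted p under 0.05). Lower calls numbered 11 with 1 reference probe set per gene, 12 with a gene's probe sets averaged and 9 with the caudal Hox covariate, the first 2 over 18193 genes in place of 45037 probe sets. They ranged from 18 to 23 when single arrays were left out. Of 154 recomputed changes of the factors 6 reversed, none of them called: with the caudal Hox covariate Lmx1b (-0.17), Insm1 (0.15) and En2 (0.012), with probe sets averaged Gata2 (-0.013), without wild-type replicate 16 Gata2 (-0.00016, the lowest when single arrays were left out, the highest being 0.085), and, in an alternative added after seeing the data, with wild type 18 and mutant 11 both left out, Foxa2 (-0.0012). The cause was not tested. No paired analysis was possible because the sample labels used here do not give the litter of each mouse, so a litter effect was not tested. Dim probe sets, such as 1 each of Lmx1b and Insm1, limit what small changes can be seen, and so may that of Foxa2, near the array medians.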
